A study of Homo sapiens with 6 samples.

Results

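Epithelial-mesenchymal transition (EMT) is the programme in which epithelial cells lose their junctions and gain migratory, mesenchymal properties, and 6 genes of the SNAI, TWIST and ZEB families encode transcription factors that drive it. These 6 genes, SNAI1, SNAI2, TWIST1, TWIST2, ZEB1 and ZEB2, were taken by symbol from a deposited table of estimated counts for 19655 genes. All 6 were found there and all 6 passed the filter on low counts that left 14062 genes for testing. The table holds RNA sequencing of cells that carry the label HCT116, the name of an established line from a human colorectal carcinoma, in 3 libraries of control cells (NC, labelled with the genotype control) and 3 libraries of cells transfected with an antisense oligonucleotide against the small nucleolar RNA SNORA67 (ASO, labelled SNORA67 knockdown). The cells of both groups were grown in DMEM with foetal bovine serum. The labels do not state what the control cells received, or the sequence and dose of the oligonucleotide and when cells were collected. The question behind the design is how SNORA67 promotes properties of colorectal cancer cells, which the libraries address by ASO against NC. The labels do not say whether the libraries of a group come from separate cultures, so the p-values below reflect the spread among these libraries alone, which could be technical.

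In the SNAI (Snail) family, SNAI1 and SNAI2 (Slug) are zinc finger repressors that bind E-box motifs in the promoters of junction genes such as CDH1, which encodes E-cadherin. ZEB1 and ZEB2 carry zinc finger clusters at both ends and bind the same kind of motif. TWIST1 and TWIST2 belong to the basic helix-loop-helix class and act as dimers with E proteins. In colorectal carcinoma these factors are best known from invasive tumour edges and from stromal fibroblasts.

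Column totals ran from 49136502 to 54905215 counts per library, at about 4 counts per fragment. CPM is each count scaled to a fixed library total, here with TMM, the trimmed-mean method of edgeR. Correlations of log2 CPM were 0.969 to 0.982 between libraries of the same group and 0.872 to 0.903 between groups. ASO replicate 2 correlated less with ASO replicates 1 and 3 (0.969 and 0.974) than these did with each other (0.978). It also had the highest correlation of the ASO libraries with each NC library. SNORA67 itself was not analysed here, so its knockdown was not checked. The label of the cells was compared with marker genes. Of 20 colon epithelium markers, 3 exceeded 10 CPM on average in NC, namely the keratins KRT8 and KRT18 and the epithelial factor ELF3, and 15 lay under 1 CPM. ESRP1 and TFF3 had 0 counts in all 6 libraries, and the intestinal factor CDX2 stood at 0.311 ± 0.165 CPM in NC (SD, n = 3, as for all values after a ± sign). Summed over the 20 markers, the level was 1980 to 2280 CPM in NC and 1710 to 2250 CPM in ASO, a sum made up mostly of KRT8 and KRT18. Of the 12 colon epithelium markers tested, 4 rose, 0 fell and 8 did not pass, with a median log2 fold change of 0.61. Over all genes tested, 26.8% rose and 19.1% fell. The 4 would not have passed the filter on low counts by their NC libraries alone, so a rise was favoured in advance. The 4 that rose were LGALS4, a galectin gene, from 0, 0 and 1 counts in the NC libraries to 1021, 752 and 1004 in ASO, and VIL1, the villin gene, from 0, 11 and 0 to 585, 56 and 731. KRT19 went from 8, 0 and 0 to 98, 60 and 97 counts and the mucin gene MUC2 from 17, 0 and 4 to 197, 68 and 166 counts. VIL1 did not pass with limma-voom (adjusted p = 0.111) or with a replicate block in edgeR. Of 14 fibroblast markers, 6 exceeded 10 CPM in NC, among them the collagen gene COL5A1 at 612 ± 33.3 CPM and FBLN1 at 430 ± 37.7 CPM. Another 5 lay under 1 CPM in NC, namely COL1A2, COL3A1, COL6A3, PDGFRA and POSTN. PDGFRA and POSTN had 0 counts throughout. Their sum was 1690 to 1950 CPM in NC and 2480 to 3040 CPM in ASO, while the 11 tested split into 5 higher, 3 lower and 3 not past the threshold, with a median of -0.15. COL5A1 rose 2.09-fold to 1280 ± 125 CPM, and LUM and DCN, proteoglycan genes of fibroblasts, fell 2.42-fold and 1.91-fold. Most of the listed colon epithelium markers were thus absent or low in NC libraries that carry the HCT116 label, and whether the cells are of that line was not tested. In bulk RNA, fewer cells of a type cannot be told apart from less RNA per cell.

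**Figure D1:**
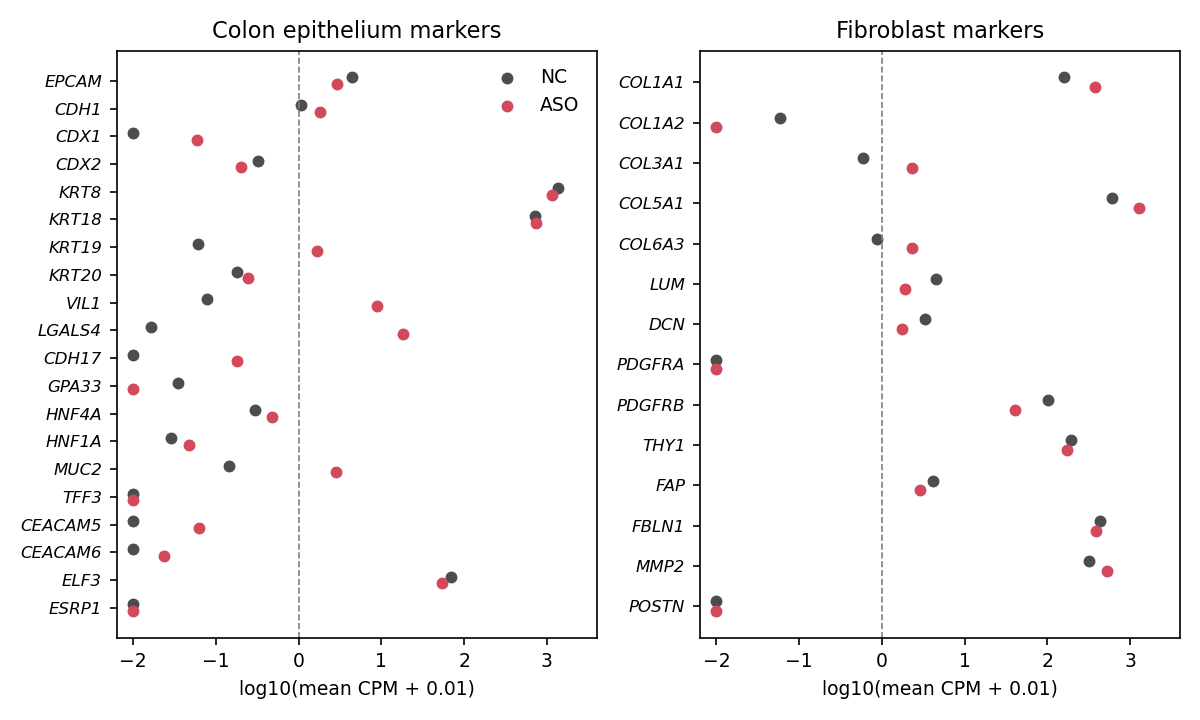
Mean TMM-scaled CPM of 20 colon epithelium markers (left) and 14 fibroblast markers (right) in NC (dark) and ASO (red), on the scale log10(mean CPM + 0.01), with the dashed line at about 1 CPM. KRT8, KRT18 and ELF3 lie far to the right in both groups, while 15 colon epithelium markers and 5 fibroblast markers lie under 1 CPM in NC.

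SNAI2 rose 5.02-fold and TWIST2 fell 1.59-fold in ASO, and SNAI1, TWIST1, ZEB1 and ZEB2 did not pass the test. Of the 6 factors, 1 was thus higher and 1 lower by the quasi-likelihood test of edgeR at an adjusted p under 0.05, where 26.8% of all 14062 genes tested were higher and 19.1% lower, 46.0% in either direction. The median log2 fold change of the 6 genes was 0.29 against 0.01 for all genes tested. The 2 groups of libraries did not overlap for 5 of the 6 factors, ZEB1 being the exception, and for 57.6% of all genes tested.

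SNAI2 lies on chromosome 8 at 48917598 to 48921740, on the minus strand, and its longest coding transcript, SNAI2-203, has 3 exons and 2428 bases. Its level was 14.2, 14.99 and 12.8 CPM in NC replicates 1 to 3 and 69.6, 74.8 and 66.4 CPM in ASO replicates 1 to 3. Every ASO library was far above every NC library, and the libraries of each group stayed close to each other. The log2 fold change was 2.33 with a standard error of 0.12 and a 95% interval of 2.06 to 2.60 (edgeR adjusted p = 5.76e-06). Of the 3772 genes that rose, 1361 had a larger log2 fold change. Among all 14062 genes tested, 1411 had a larger one and 90.0% a smaller one. The rise of SNAI2 was thus the largest of the 6 factors, and many other genes rose more. Its log2 fold change ran from 2.26 to 2.39 over 15 alternative settings and passed the threshold in all 15.

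SNAI1, on chromosome 20 at 49982980 to 49988886, plus strand, has 3 exons in SNAI1-201. Its level was 65.3, 58.4 and 64.3 CPM in NC and 88.8, 65.9 and 83.8 CPM in ASO. ASO replicate 2 sat just above the highest NC library, while the other ASO libraries were clearly higher. The log2 fold change was 0.34 (SE 0.13, 95% interval 0.04 to 0.64), with an adjusted p of 0.0615 in edgeR against an unadjusted p of 0.03. The call depended on the setting: the adjusted p was 0.0474 in DESeq2, 0.0485 with counts divided by 4 and 0.00612 without ASO replicate 2, where the log2 fold change was 0.46.

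TWIST2 lies on chromosome 2 at 238848032 to 238910534, on the plus strand, with 2 exons and 1404 bases in TWIST2-202. The NC libraries held 100.2, 89.1 and 95.7 CPM of it and the ASO libraries 63.6, 54.4 and 60.7 CPM. All ASO libraries were below all NC libraries. The log2 fold change was -0.67 (SE 0.10, 95% interval -0.91 to -0.44, edgeR adjusted p = 0.00138), and it stayed between -0.73 and -0.62 and past the threshold in the 15 alternative settings. Its paralogue TWIST1, on chromosome 7 at 19115468 to 19117636, minus strand, had 14.5, 14.9 and 14.7 CPM in NC and 17.8, 15.1 and 18.9 CPM in ASO. The groups of TWIST1 were parted by the narrow gap below ASO replicate 2. Its difference was 0.23 on the log2 scale (95% interval -0.10 to 0.56), which did not pass (edgeR adjusted p = 0.215). TWIST1 and TWIST2 counts together went from 109.7 ± 5.40 to 76.8 ± 6.40 CPM.

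ZEB1, on chromosome 10 at 31319125 to 31529813, plus strand, was at 11.9, 13.1 and 11.4 CPM in NC and 12.6, 17.6 and 15.9 CPM in ASO. The groups overlapped, since ASO replicate 1 lay below NC replicate 2. Its log2 fold change was 0.34 (95% interval -0.05 to 0.73, edgeR adjusted p = 0.135). ZEB2, on chromosome 2 at 144364364 to 144521057, minus strand, was the least abundant factor per length, with 7.70, 7.48 and 7.67 CPM in NC and 7.97, 8.90 and 9.58 CPM in ASO. Its log2 fold change was 0.21 (95% interval -0.15 to 0.58, edgeR adjusted p = 0.305). Both ZEB intervals reach below 0 and above 0.5 on the log2 scale, so a rise of that size is compatible with either gene. ZEB1 and ZEB2 each overlap an antisense gene in GENCODE release 29 (ZEB1-AS1 and ZEB2-AS1), and because no source states stranded counting, reads of the antisense genes could be counted in them.

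**Figure D2:**
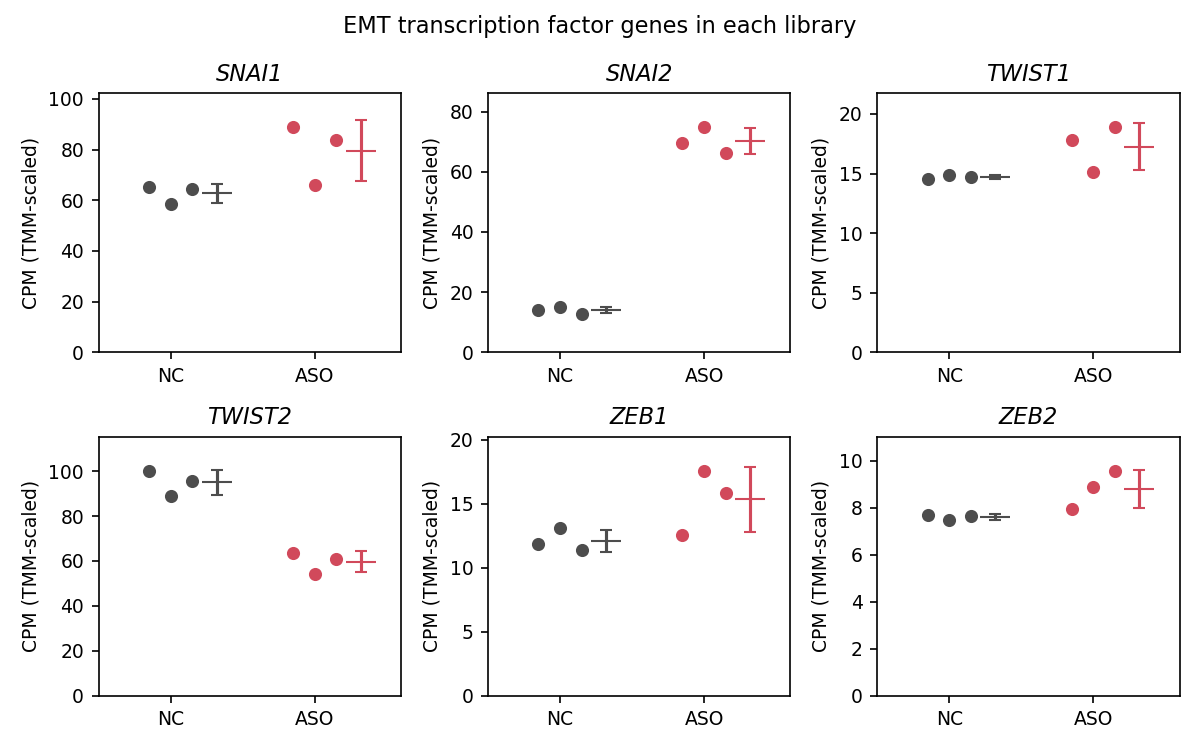
TMM-scaled CPM of the 6 factors in each NC (dark) and ASO (red) library, on axes that start at 0, with the mean and SD beside the points. SNAI2 goes from 12.8 to 14.99 CPM in NC to 66.4 to 74.8 CPM in ASO, and TWIST2 is lower in all ASO libraries.

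**Figure D3:**
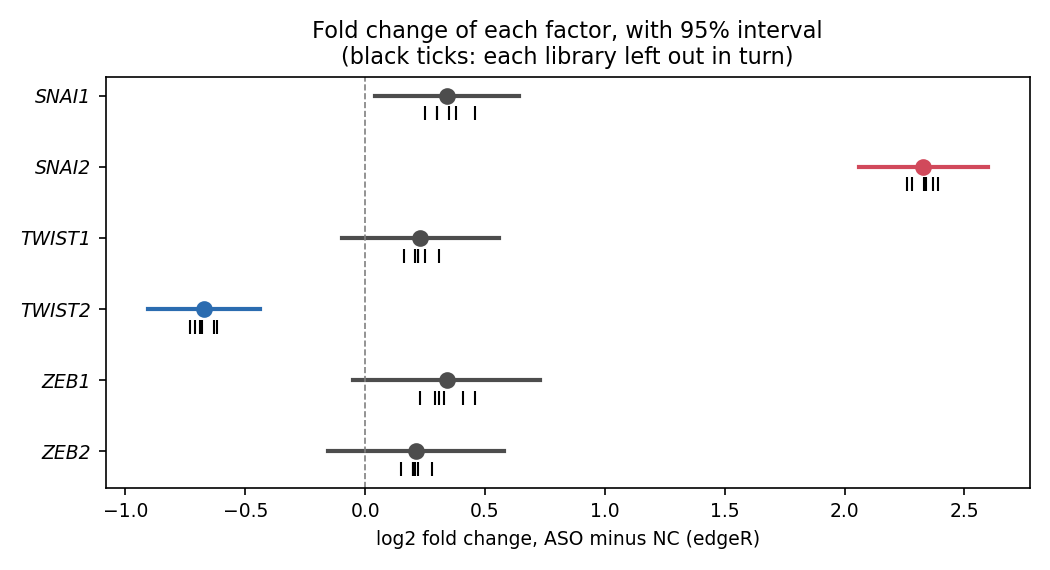
Log2 fold change of each factor, ASO minus NC, from edgeR (points) with its 95% interval (bars) and the values with each of the 6 libraries left out (black ticks). SNAI2 (red) and TWIST2 (blue) passed the adjusted threshold, and the intervals of TWIST1, ZEB1 and ZEB2 include 0.

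Per kilobase (kb) of the longest coding transcript, levels in NC descended from TWIST2 at 67.7 ± 3.97 CPM per kb through SNAI1 at 37.2 ± 2.24, TWIST1 at 8.83 ± 0.104, SNAI2 at 5.76 ± 0.452 and ZEB1 at 1.94 ± 0.136 to ZEB2 at 0.795 ± 0.0126 CPM per kb. No neighbours in this order overlapped between libraries. In ASO the order was SNAI1 at 47.2 ± 7.15 CPM per kb, TWIST2 at 42.4 ± 3.35, SNAI2 at 28.9 ± 1.75, TWIST1 at 10.4 ± 1.17, ZEB1 at 2.45 ± 0.405 and ZEB2 at 0.92 ± 0.0844. The ranges of SNAI1 and TWIST2 overlapped there, although SNAI1 was above TWIST2 within each ASO library. SNAI2 stood above TWIST1 in every ASO library and below it in every NC library. With the union of exons over all basic coding transcripts as length, TWIST2 was at 50.6 CPM per kb in NC and 31.7 in ASO, against 37.2 and 47.2 for SNAI1, and within each group the order of the 6 means was as with the longest transcript.

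Summed over the 6 genes, the level was 122.1 ± 5.71 CPM per kb in NC and 132.2 ± 9.68 CPM per kb in ASO, with overlapping libraries. SNAI2 held 4.73% ± 0.531 of that sum in NC and 22.02% ± 2.91 in ASO, and TWIST2 held 55.4% ± 0.671 and 32.1% ± 0.218. Relative to SNAI1, the level of SNAI2 per kb was 0.150, 0.178 and 0.138 in NC and 0.544, 0.788 and 0.550 in ASO. Relative to TWIST1, that of TWIST2 was 8.18, 7.11 and 7.71 in NC and 4.24, 4.27 and 3.81 in ASO. Both ratios were parted without overlap. No stretch of 31 bases was shared between the longest coding transcripts of any pair of the 6 genes.

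**Figure D4:**
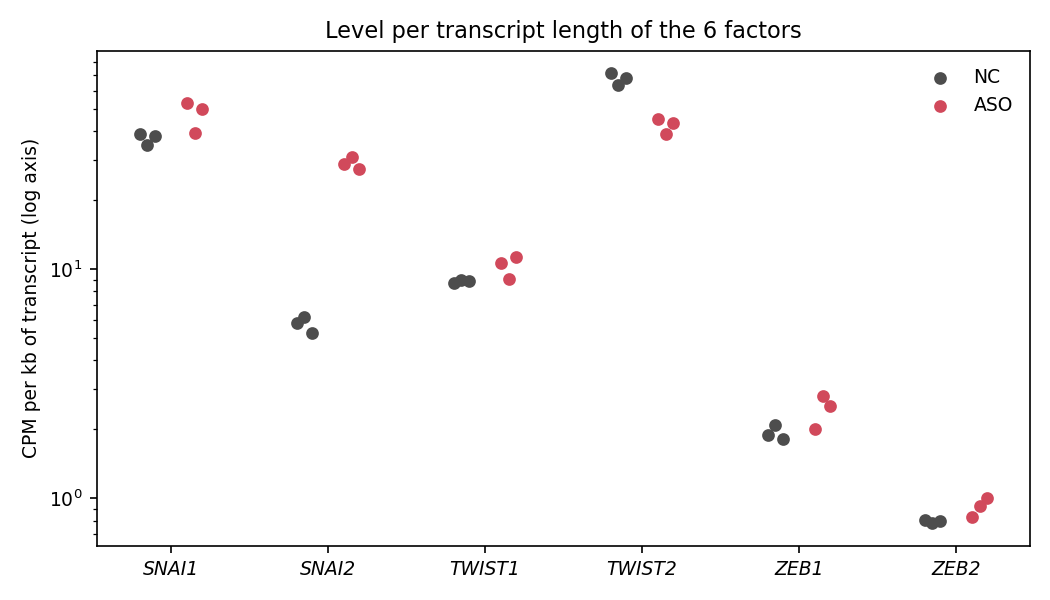
Level of the 6 factors per kb of their longest coding transcript in each NC (dark) and ASO (red) library, on a log axis. TWIST2 and SNAI1 lead in NC, SNAI2 moves from below to above TWIST1, and ZEB1 and ZEB2 are lowest in both groups.

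Likeness of profile was measured as the Euclidean distance between centred log2 CPM values over the 6 libraries, among 12469 other genes at 1 CPM or more on average, as a description of libraries that fall into the 2 groups. The 3 nearest genes were AMIGO2, ABL2 and FRMD6 for SNAI2 (distances 0.17 to 0.239), HMG20B, TGFB1 and H1-10 for SNAI1 (0.063 to 0.071) and ZCCHC24, DAG1 and B4GALNT1 for TWIST2 (0.085 to 0.098). For TWIST1 they were NR1H2, KDM4B and KCTD10, for ZEB1 PTP4A2, ZNF623 and NMT2, and for ZEB2 METTL6, DCTN5 and SMPD1, at distances of 0.093 to 0.115. Within the family, SNAI1 and TWIST1 were nearest to each other, at 0.249. SNAI2 had no near relative among the factors, its closest being ZEB1 at 2.47.

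Promoter sequences of ZEB1, ZEB2 and TWIST2, in windows of 300 bases that reach past the RefSeq start, in build GRCh38.p14, are shown because these are the members with an entry and because E-box motifs are where SNAI and ZEB factors bind. They were searched on both strands for the hexamer CACCTG, which reads CAGGTG on the other strand and is the E-box form favoured by SNAI and ZEB factors. Capitals mark a match. Of 35116 promoters of this length, 20.6% held 1 or more. SNAI1, SNAI2 and TWIST1 had no entry. TWIST2 is at chr2:238847835-238848134 (plus strand), ZEB2 at chr2:144520070-144520369 (minus strand) and ZEB1 at chr10:31318167-31318466 (plus strand).
TWIST2: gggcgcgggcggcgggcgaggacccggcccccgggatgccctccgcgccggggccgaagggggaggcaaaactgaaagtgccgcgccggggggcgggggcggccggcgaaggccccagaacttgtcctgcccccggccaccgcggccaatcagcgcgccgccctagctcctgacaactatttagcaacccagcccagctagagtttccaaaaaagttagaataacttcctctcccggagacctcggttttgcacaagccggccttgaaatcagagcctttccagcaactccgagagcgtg
ZEB2: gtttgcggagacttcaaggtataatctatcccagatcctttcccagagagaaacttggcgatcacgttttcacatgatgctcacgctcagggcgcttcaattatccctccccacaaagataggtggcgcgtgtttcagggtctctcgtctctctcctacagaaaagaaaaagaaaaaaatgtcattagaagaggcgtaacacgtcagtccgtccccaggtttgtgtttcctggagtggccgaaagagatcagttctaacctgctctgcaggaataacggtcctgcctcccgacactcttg
ZEB1: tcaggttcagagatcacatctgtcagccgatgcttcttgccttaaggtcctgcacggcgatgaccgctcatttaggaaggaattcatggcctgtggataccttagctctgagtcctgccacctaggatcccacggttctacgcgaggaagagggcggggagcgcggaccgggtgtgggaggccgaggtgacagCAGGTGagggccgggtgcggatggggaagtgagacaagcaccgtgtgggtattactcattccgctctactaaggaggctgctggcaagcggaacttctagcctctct
ZEB1 held 1 match, beginning at base 194 of the window, 57 bases before the start, and the TWIST2 and ZEB2 windows held none. The absence of these letters says nothing about other sites. Only the listed window of each gene was searched, and other starts were not. The ZEB2 window lies inside the gene as deposited, and the ZEB1 window ends before the deposited start at 31319125.

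Of 11 listed E protein, ID and related helix-loop-helix genes, 7 were tested, of which 2 rose, 1 fell and 4 did not pass, with a median log2 fold change of -0.07. This is near the 46.0% called in either direction over all genes. TCF4, an E protein that can dimerise with TWIST factors, fell 1.67-fold, from 13.3 ± 0.592 to 7.95 ± 0.75 CPM (edgeR adjusted p = 0.00574). The other E proteins did not pass: TCF3 stood at 194 ± 22.8 and 207 ± 32.6 CPM, and TCF12 at 48.2 ± 5.56 and 38.8 ± 5.34 CPM. ID proteins sequester E proteins and so limit helix-loop-helix dimers. ID2 rose 1.76-fold, from 12.5 ± 0.752 CPM, and ID3 rose 1.47-fold, from 391 ± 34.3 to 574 ± 60.0 CPM, while ID1 was at 329 ± 17.6 and 313 ± 32.6 CPM without a call.

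Co-repressors were all tested, and of 17 genes 3 rose, 6 fell and 8 did not pass, with a median of 0.01. Over all genes tested, 26.8% rose and 19.1% fell. SNAI and ZEB proteins silence promoters through such factors. AJUBA, a LIM-domain adaptor that binds the SNAG domain of SNAIL, went up from 79.3 ± 5.15 to 248 ± 6.58 CPM, or 3.13-fold (edgeR adjusted p = 6.71e-06), and its relative WTIP rose 1.92-fold. KDM1A, the histone demethylase LSD1 recruited by SNAI1, fell 1.67-fold from 299 ± 21.3 to 179 ± 5.39 CPM (edgeR adjusted p = 0.00034), and the histone deacetylase gene HDAC2 fell 1.96-fold. CTBP2, a co-repressor of ZEB1, rose 1.26-fold (edgeR adjusted p = 0.0138), a call lost when NC replicate 1 (adjusted p = 0.0544) or ASO replicate 3 (adjusted p = 0.0659) was left out. CTBP1, its paralogue, was at 128 ± 10.0 and 131 ± 21.8 CPM and did not pass.

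Genes for kinases, ubiquitin ligases and related proteins that modify or degrade the factors were mixed too. Of 18 listed, 17 were tested, with 2 higher, 4 lower and 11 not past the threshold, and a median of -0.23. The shares over all genes tested were 26.8% higher and 19.1% lower. LATS2, a Hippo pathway kinase, rose 2.75-fold from 47.7 ± 2.88 to 131 ± 6.84 CPM, and the ubiquitin ligase gene SIAH1 rose 2.21-fold. PRKD1, protein kinase D1, fell 2.5-fold from 3.33 ± 0.803 CPM. GSK3B, which marks SNAI1 for degradation, differed by 0.32 on the log2 scale and did not pass (edgeR adjusted p = 0.0523), but passed in 5 of the 15 alternatives, DESeq2 among them (adjusted p = 0.0395). BTRC, the ubiquitin ligase subunit that then binds SNAI1, fell 1.62-fold (edgeR adjusted p = 0.0169), but its call was lost when NC replicate 1, 2 or 3 or ASO replicate 3 was left out (adjusted p = 0.0512 to 0.0635). The number of genes lower was 7 without ASO replicate 2.

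Of 22 listed upstream inducers and regulators, 21 were tested, and 11 rose, 1 fell and 9 did not pass, with a median of 0.37, where 26.8% of all genes tested rose. The cytokine gene IL6 rose 33.2-fold to 795 ± 15.1 CPM, and TNF went from 8, 5 and 5 counts in the NC libraries, under the 12 counts taken as detected, to 3051, 2462 and 2976 counts in ASO. JAG1, a Notch ligand, rose 4.77-fold from 20.3 ± 1.86 CPM. In the TGF-beta pathway, a main inducer of these factors, the inhibitory SMAD7 rose 4.18-fold, SMAD3 2.49-fold and the ligand TGFB2 2.18-fold, and the ligand TGFB3 fell 1.36-fold. The call of TGFB3 was lost without NC replicate 3 (adjusted p = 0.0505), which left 0 genes lower, and HIF1A was lower as well in DESeq2, with the replicate block and without ASO replicate 2. TGFB1, the ligand most studied in EMT, was at 225 ± 14.1 and 278 ± 43.2 CPM and did not pass (edgeR adjusted p = 0.0729). SMAD3, TGFB2, TGFB1, TGFB3 and the EMT-linked genes FOXC1, SNAI3 and KLF5 were named after their values were seen.

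Other transcription factors linked to EMT rose in 7 of the 10 tested, and 3 did not pass, with a median of 1.08. The share higher over all genes tested was 26.8%. 6 further genes of the 16 listed were not tested, among which SCRT2, PRRX1, TBXT, KLF8 and GSC had 0 counts in every library. FOXC2, a forkhead factor of mesenchymal cells, rose 7.19-fold from 5.12 ± 0.441 to 36.8 ± 4.99 CPM. TBX3, a T-box repressor, rose 2.70-fold to 380 ± 7.67 CPM, HMGA2 3.33-fold and SOX9 3.02-fold. FOXC1 rose 1.91-fold. SNAI3, the remaining SNAI paralogue, was low and went from 1.48 ± 0.342 to 3.49 ± 1.02 CPM (edgeR adjusted p = 0.0145, and 0.0555 without ASO replicate 1).

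Factors that hold cells in the epithelial state rose in 5 of 8 tested, and 3 did not pass, with a median of 1.21. Among all genes tested, 26.8% were higher. OVOL1 and EHF would not have passed the filter on low counts by their NC libraries alone. The median thus includes genes for which a rise was favoured in advance. Of the 14 listed, OVOL2, ESRP1 and FOXA2 had 0 counts in all libraries. KLF4 rose 6.55-fold from 34.8 ± 4.17 to 228 ± 15.8 CPM, KLF5 1.76-fold, ESRP2, an epithelial splicing regulator, 2.62-fold from 1.45 ± 0.358 CPM and FOXA1 2.04-fold. OVOL1, a zinc finger repressor of ZEB1, went from 5, 0 and 0 counts in NC to 235, 282 and 164 counts in ASO.

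Of 24 listed epithelial genes known as repression targets, 23 were tested, with 8 higher, 4 lower and 11 not past the threshold, and a median of 0.05, also with CLDN1 at its lower bound. Over all genes tested, 26.8% were higher and 19.1% lower. CLDN1, MARVELD2 and RAB25 were among those that would not have passed the filter on low counts by their NC libraries alone. For these genes a rise was favoured in advance. The 4 lower became 2 without NC replicate 1, without NC replicate 3 or without ASO replicate 3. CDH1, the classic target, had 70, 48 and 50 counts in NC and 104, 84 and 90 in ASO, or 1.06 ± 0.229 and 1.81 ± 0.128 CPM. The groups did not overlap, and the log2 fold change was 0.76 (95% interval 0.02 to 1.504), which did not pass (edgeR adjusted p = 0.0862). EPCAM, an epithelial adhesion molecule, was at 4.37 ± 1.13 and 2.93 ± 0.51 CPM (edgeR adjusted p = 0.111). CLDN1, a claudin, had 0 counts in NC and 117, 112 and 154 in ASO, or 2.5 ± 0.504 CPM there against a detection limit of 0.228 CPM. ST14, a membrane serine protease, rose 8.75-fold to 25.7 ± 3.26 CPM. The tight junction gene MARVELD2 went from 7, 12 and 4 to 112, 247 and 234 counts, and RAB25 from 10, 0 and 0 to 144, 88 and 54 counts. Those that fell were the desmosomal DSP (1.42-fold), F11R (1.53-fold) and the polarity genes PATJ (1.36-fold) and LLGL2 (1.72-fold), all chosen after their values were seen. The calls of PATJ and LLGL2 were lost when any 1 of several libraries was left out, with adjusted p up to 0.134 and 0.123.

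Promoters of 15 of these 24 genes had an entry, CDH1 and EPCAM not among them, and 8 of the 15, or 53.3%, held CACCTG on either strand. The share was 20.6% over all 35116 promoters, and 14.3% of 14 promoters in the mesenchymal list below. The epithelial genes were listed as known repression targets, so their share is not independent of that choice. Of the 8 with a match, 2 rose, 2 fell, 3 did not pass and 1 was not tested, and of the 7 without, 3 rose and 4 did not pass. The windows of 3 genes that differ in response are shown, with matches in capitals: CRB3, a polarity gene with 5 matches at chr19:6464021-6464320, PATJ, which fell, with 3 at chr1:61742230-61742529, and RAB25, which rose, with 2 at chr1:156060910-156061209, all on the plus strand.
CRB3: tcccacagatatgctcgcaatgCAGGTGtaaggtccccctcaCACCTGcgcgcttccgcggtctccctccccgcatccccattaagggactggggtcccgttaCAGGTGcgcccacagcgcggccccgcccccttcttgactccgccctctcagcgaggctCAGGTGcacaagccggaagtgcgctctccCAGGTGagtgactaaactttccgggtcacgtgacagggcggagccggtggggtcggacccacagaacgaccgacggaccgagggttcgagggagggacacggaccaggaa
PATJ: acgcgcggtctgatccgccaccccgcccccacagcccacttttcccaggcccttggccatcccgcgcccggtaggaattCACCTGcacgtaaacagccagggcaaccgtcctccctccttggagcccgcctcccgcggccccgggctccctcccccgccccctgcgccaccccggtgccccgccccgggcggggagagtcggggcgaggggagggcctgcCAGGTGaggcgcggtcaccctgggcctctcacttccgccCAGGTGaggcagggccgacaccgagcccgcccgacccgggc
RAB25: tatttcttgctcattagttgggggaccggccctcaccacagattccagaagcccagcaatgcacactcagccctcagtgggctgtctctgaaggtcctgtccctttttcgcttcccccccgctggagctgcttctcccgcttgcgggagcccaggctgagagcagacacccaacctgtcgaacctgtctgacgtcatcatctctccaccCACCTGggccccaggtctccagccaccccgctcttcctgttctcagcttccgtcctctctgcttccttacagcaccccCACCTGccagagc
CRB3 was near the detection limit, at 4, 27 and 23 counts in NC and 13, 8 and 3 in ASO, and did not pass. A match in these windows went with genes that rose and with genes that fell.

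Mesenchymal genes rose in 13 of 20 tested, fell in 3 and did not pass in 4, with a median of 0.72, and 24 were listed. Of all genes tested, 26.8% rose and 19.1% fell. TAGLN, an actin-binding protein gene, rose 4.30-fold to 91.2 ± 9.22 CPM, MMP14, a membrane-bound matrix protease gene, 4.01-fold from 1.73 ± 0.476 CPM, and FN1, fibronectin, 1.83-fold from 226 ± 30.1 to 413 ± 26.3 CPM. MMP3 went from 4, 8 and 8 counts to 64, 41 and 124 counts. Like FN1, VIM and CDH2 are often read with these factors, but unlike FN1 they did not pass. VIM was at 1201 ± 82.2 and 1290 ± 106 CPM. CDH2, N-cadherin, was at 49.8 ± 3.13 and 43.2 ± 4.28 CPM (log2 fold change -0.21, 95% interval -0.47 to 0.06). CDH11, PDGFRA and POSTN had 0 counts in every library. The 3 that fell, chosen once their values were known, were PDGFRB (2.47-fold), S100A4 (1.49-fold) and SPARC (1.26-fold). The summed level of the fibroblast markers was higher in ASO, as given above, although 3 of the 11 tested fell and their median was -0.15. Both lists hold COL1A1, COL3A1, MMP2 and PDGFRB, among others, so that sum is not independent of the mesenchymal genes. The part of the fibroblast markers in these differences was not tested.

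**Figure D5:**
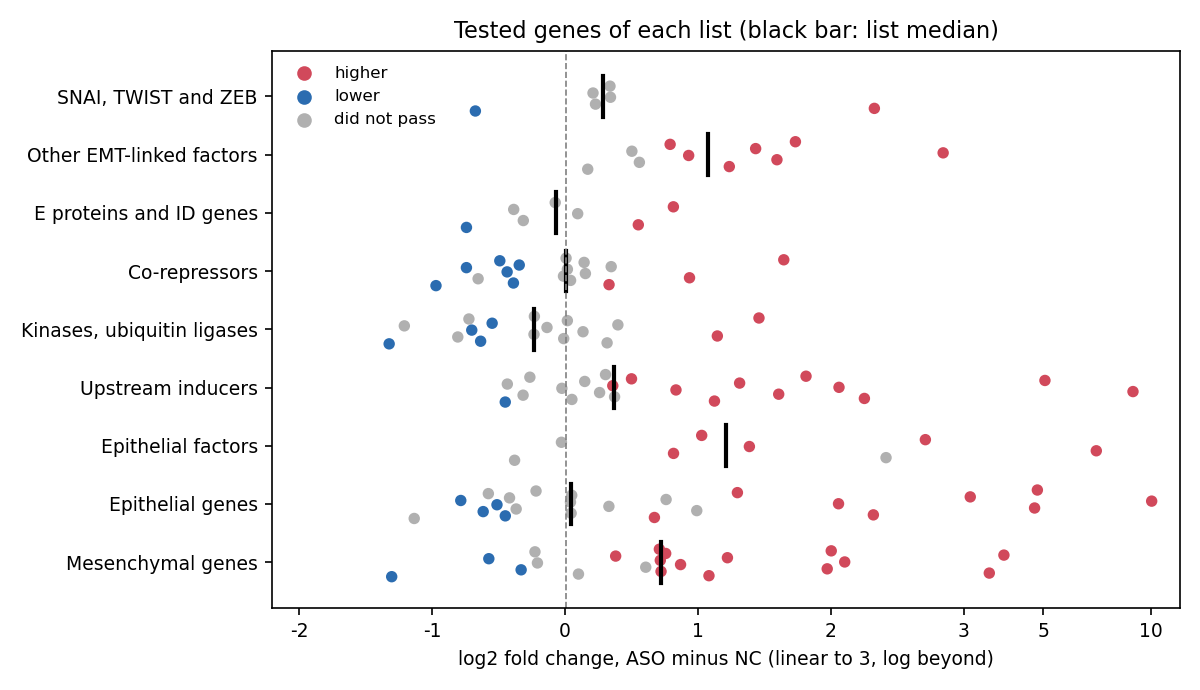
Log2 fold change, ASO minus NC, of every tested gene in the factor family and 8 lists around it, coloured by edgeR call (red higher, blue lower, grey did not pass), with the list median as a black bar and the median of all genes as a dashed line. The axis is linear to 3 and logarithmic beyond. List medians run from -0.23 for kinases and ubiquitin ligases to 1.21 for epithelial factors. Some tested genes, such as OVOL1 and EHF among the epithelial factors, passed the filter on low counts only through their ASO libraries.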

How the data were processed

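FastQC, STAR, StringTie and DESeq2, with build hg38, are named in the submitters' processing notes without versions or roles. The authors deposited estimated counts per gene, not scaled to depth. These were whole numbers, so rounding changed nothing. Annotation release, strand setting and treatment of multi-mapping reads are not stated in the labels. More genes had 4 counts (226 to 296 per library) than 3 (74 to 121), so 1 fragment was taken as about 4 counts and 3 fragments, 12 counts, as the detection limit, which covers counting error only.

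In R 4.3.3, edgeR 4.0.16 kept 14062 genes by filterByExpr (minimum count 10, minimum total 15) and removed 5593. Genes near 0 in NC, such as TNF and MMP3, could pass this filter only through higher counts in ASO. Libraries were scaled by TMM, and ASO was compared with NC over all 6 libraries by the robust quasi-likelihood test, with Benjamini-Hochberg adjustment over all genes tested at 0.05. The standard error is the log2 fold change divided by the square root of F. Log2 CPM used a prior count of 2. DESeq2 1.42.0 and limma 3.58.1 (voom) were alternatives. Others were the scaling (RLE, upper quartile, none), the filter, counts divided by 4, a replicate block and each library left out. On simulated counts, in 13893 genes, 53.1% of 98 genes changed by 1 on the log2 scale and 93.8% of 97 changed by 2 were recovered. In the data 46.0% of genes were called, so the adjusted threshold was stricter in the simulation with its few changed genes. These recovery rates therefore do not carry over to the comparison of ASO with NC.

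Strands, transcript lengths and overlapping genes came from GENCODE release 29, coordinates of genes from the deposited table and promoters from RefSeq. The members and lists were chosen with earlier results of these data known. Named genes were the 6 factors, up to 4 called genes per list with the largest change, given non-overlapping groups and a mean of 1 CPM in the higher group, 15 fixed genes, and the 3 nearest profiles per factor. A gene that this rule names is not reported here. Lists of smooth muscle, endothelium, immune and melanocyte markers were counted as well. A list of 3 antisense neighbours matched 0 genes.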

Additional observations from a re-analysis of the deposited data

How the results depend on the processing

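Over the 15 alternatives, SNAI2 and TWIST2 kept direction and call, TWIST1, ZEB1 and ZEB2 kept direction and did not pass, and the totals over all lists, 51 higher and 19 lower, stayed within 1.5 times their values. Within single lists the small counts of lower genes moved more, from 4 to 7 for kinases and ligases, from 4 to 2 for epithelial genes, from 1 to 0 or 2 for inducers and from 0 to 1 for epithelial factors. SNAI1 passed in 4 of the 15, with log2 fold changes of 0.36 in DESeq2 (where 26.9% of genes with an adjusted p were higher), 0.37 with counts divided by 4 and 0.33 with the replicate block (adjusted p = 0.0167), and 0.25 to 0.46 with each library left out. The number of factors higher was then 2 in DESeq2, with counts divided by 4 and with the block, and 1 to 2 with a library left out. Over all genes, the number lower ran from 1755 without NC replicate 1, and 1764 without ASO replicate 3, to 3199 without ASO replicate 2. The block gave 3924 higher and 3494 lower genes. Deviations of same-numbered libraries correlated at 0.052, 0.188 and 0.015. The value for replicate 2 was the largest of all pairs, while NC replicate 3 correlated best with ASO replicate 1 (0.092). With 3 libraries per group, these correlations cannot decide whether same-numbered libraries share a batch, which the labels do not state. The cause of these shifts was not tested. At 96.8 to 120 fragments per library, ZEB2 has the widest counting error of the 6 factors.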

Other observations

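Of 8 immune markers, 4 were tested and all 4 rose. Here and for the lists that follow, the shares over all genes tested were 26.8% higher and 19.1% lower. CD79A and CD14 would not have passed the filter on low counts by their NC libraries alone, so a rise was favoured in advance. CD68, a lysosomal glycoprotein gene, rose 4.17-fold from 22.3 ± 0.633 to 93.0 ± 12.4 CPM and made up most of the summed level of the list, and CD79A, a B cell receptor component gene, went from 4, 5 and 8 counts in NC to 374, 289 and 418 counts in ASO. PTPRC and CD3E, which define leukocytes and T cells, had 0 counts in all 6 libraries. The summed level of the list was 22.8 to 23.5 CPM in NC and 101.0 to 125.0 CPM in ASO. Of 6 smooth muscle markers, 4 rose and 1 fell, with MYH11, smooth muscle myosin, at 0.524 ± 0.0662 and 3.68 ± 0.429 CPM. Of 6 endothelial markers, 4 were tested and 2 rose, and KDR had 0 counts throughout. Of 6 melanocyte and neural crest markers, 3 were tested and 1 rose, MITF, from 38.3 ± 1.80 to 56.2 ± 13.3 CPM, while TYR had 0 counts. The calls of MITF, CLDN5, CD14, ACTG2, SMTN and DES were lost when 1 or more single libraries were left out. LMOD1 of the smooth muscle list and CLDN5 of the endothelial list, both called higher, would not have passed the filter by their NC libraries alone either. All genes in this paragraph were named after their values were seen.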
